A study of Homo sapiens with 12 samples.

Results

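Glucose enters a cell through facilitative transporters, is trapped by phosphorylation and is broken down in glycolysis to pyruvate, which goes to lactate or into mitochondria. The genes described here are 10 members of this route, chosen by name: the glucose transporter genes *SLC2A1*, *SLC2A3* and *SLC2A12*, the hexokinase genes *HK1* and *HK2*, the phosphofructokinase gene *PFKP*, the bifunctional enzyme gene *PFKFB3*, the lactate dehydrogenase gene *LDHA*, the pyruvate dehydrogenase kinase gene *PDK1*, and *TXNIP*, a brake on glucose uptake. These members were chosen with earlier results of these data known. They are 10 of the 58302 genes in the count table, and all 10 passed the filter on low counts that left 17849 genes for testing. RNA was sequenced in 12 libraries that the labels assign to NCI-H520, an established line from a squamous carcinoma of the human lung, in 4 groups of 3. The first group, L1-FGGY DMSO, was given the solvent DMSO at 0.2% and overexpressed L1-FGGY, a chimeric transcript that starts in a LINE-1 element and runs into the gene *FGGY*. The second, L1-FGGY ML355, carried the same construct and received 10 µM ML355, an inhibitor of the lipoxygenase 12-LOX. The third, L1-FGGY NVR by its label, received 450 µM NVR, a reverse transcriptase inhibitor. The fourth, CTRL DMSO, was a control given 0.2% DMSO, and the study's control for this construct is the same line with an empty vector. The inhibitors were added with new medium 5 h after seeding. The length of treatment and whether the inhibitor groups also contained DMSO are not given in the sources used here. The promoter of the vector and whether the lines were clones are not given either. Nothing says that the replicates were separate cultures, so that p-values measure the spread between these libraries, which may be technical.

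GLUT1 and GLUT3, the products of *SLC2A1* and *SLC2A3*, carry glucose down its gradient, and hexokinases trap it as glucose 6-phosphate. Phosphofructokinase then sets the pace of the pathway, and *PFKFB3* makes fructose 2,6-bisphosphate, its most potent activator. Pyruvate goes either to lactate, through *LDHA*, or into mitochondria, where *PDK1* restrains its entry into the citric acid cycle. Many tumours, squamous lung carcinomas among them, show high uptake of glucose, and several of these genes are induced in hypoxia. *TXNIP* belongs to the alpha-arrestins, is transcribed when glucose metabolites accumulate, and promotes the removal of glucose transporters from the cell surface.

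The construct and the cell line were examined first, since the libraries fell into a pair of sets. *FGGY* counts were 4782 to 6196 in L1-FGGY DMSO and 5080 to 7346 in L1-FGGY ML355, but 82 to 103 in the libraries labelled NVR, against 78 to 91 in CTRL DMSO. Along the first principal component, which took up 78.9% of the variance, the L1-FGGY DMSO and ML355 libraries lay apart from those of CTRL DMSO and those labelled NVR. Pearson's r over genes was at least 0.932 within each set and at most 0.774 between them. *SOX2*, a defining gene of squamous lung carcinoma, had 0 counts in all 6 L1-FGGY DMSO and ML355 libraries and 128 to 446 counts in the others. *KRT14*, a squamous keratin, went the other way, with 4 to 10 counts in L1-FGGY DMSO, 29 to 63 in ML355 and 0 in the others. Of 7 squamous markers, only 2 exceeded 3 counts in any library of each group, and *KRT5*, *KRT6A*, *DSG3* and *PKP1* did so in none. The summed level of the 7 was 0.86 to 3.46 CPM (counts scaled to library size with TMM factors) in L1-FGGY DMSO and ML355 and 8.99 to 21.2 CPM in the other libraries. The summed level of the 4 fibroblast markers was 106.0 to 123.0 CPM in L1-FGGY DMSO, 46.4 to 58.4 in ML355, 19.8 to 25.2 in CTRL DMSO and 19.5 to 22.0 in the libraries labelled NVR, and *DCN* was at 3 counts or fewer throughout the last set of 6. The 4 leukocyte markers summed to 2.37 to 3.81 CPM in the first set of 6 libraries and to at most 0.156 CPM in the other. The 3 endothelial markers reached 8.88 to 9.4 CPM in L1-FGGY DMSO and 0.257 to 0.689 elsewhere, ML355 included. The 4 adenocarcinoma markers summed to at most 0.788 CPM in the first set and 4.57 to 10.6 in the second, and the 4 neuroendocrine markers to at most 0.841 and 5.2 to 23.7 CPM. The share of counts in mitochondrial genes was 5.79 to 6.52% in L1-FGGY DMSO and 1.46 to 1.64% in ML355, 4.21 to 4.51% in CTRL DMSO and 6.19 to 6.74% in the libraries labelled NVR. The part of these differences in the results was not tested. The comparisons within a set, ML355 against L1-FGGY DMSO and the libraries labelled NVR against CTRL DMSO, are given first. By their labels, the NVR libraries differ from CTRL DMSO in the construct as well as the drug. With *FGGY* at the CTRL level, whether they carried the construct is not known. In that comparison the drug and the construct therefore cannot be told apart. The labels name NCI-H520 for all 12 libraries, and whether both sets are the same line was not tested. Between the sets, the construct or drug and the difference between the cells cannot be told apart. In bulk RNA, fewer cells that express a gene and less of its RNA per cell cannot be told apart either.

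After ML355, 4 of the 10 genes were higher (*SLC2A3*, *TXNIP*, *HK2* and *PDK1*) and 2 were lower (*LDHA* and *SLC2A12*). Of these, *SLC2A12* passed the filter on low counts in the fit of all 12 libraries but not in a fit of only the groups compared. Over all genes tested, 21.3% were called higher and 23.5% lower at a Benjamini-Hochberg adjusted p under 0.01 in edgeR's quasi-likelihood test. These shares include genes that passed the filter through the other groups. In a fit of only the groups compared, 4091 of 14841 genes were higher and 4119 lower, with 5 members higher and 1 lower. In the fit of all 12 libraries, the median log2 fold change was 0.32 over the 10 genes and 0.00 over all genes. *TXNIP* showed the largest rise, 5.11-fold, and *LDHA* fell 2.43-fold. In the libraries labelled NVR, against CTRL DMSO, 6 of the 10 were lower (*SLC2A1*, *SLC2A3*, *HK2*, *PFKP*, *PFKFB3* and *LDHA*) and 1 was higher (*HK1*). There 14.5% of all genes were higher and 15.3% lower. The median over the 10 genes was -0.72, against 0.00 over all genes. Scaled by library size alone, this comparison gave 1826 genes higher and 3208 lower in place of 2593 and 2723, with a median over all genes of -0.152, and 0 of the 10 genes higher and 6 lower.

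**Figure D1:**
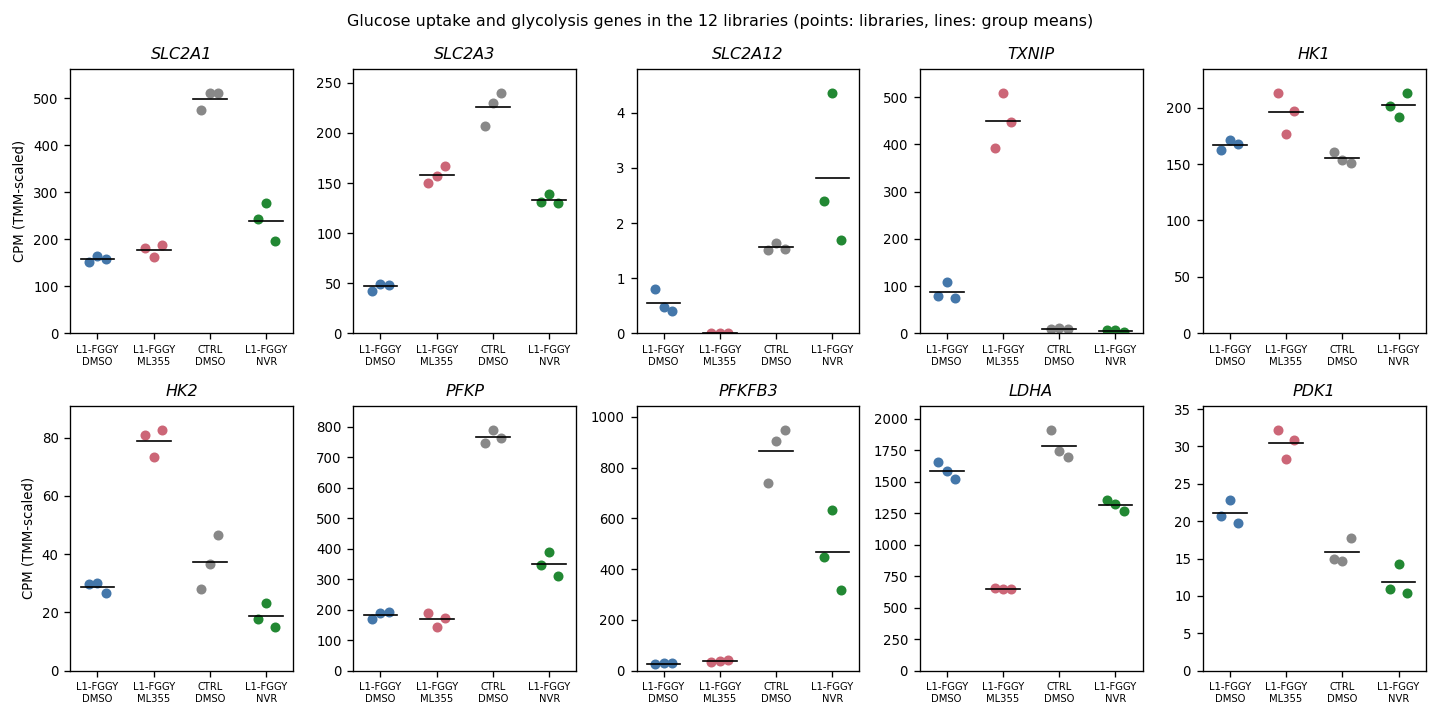
CPM with TMM scaling (linear axes from 0, a scale for each gene) of the 10 genes in the 12 libraries, with points for libraries and lines for group means of 3. *TXNIP* lay at 392 to 509 CPM in ML355 and at 3.95 to 11.1 CPM in CTRL DMSO and the libraries labelled NVR, and *LDHA* at 645 to 658 CPM in ML355, below all other libraries.

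*SLC2A1* (ENSG00000117394, chromosome 1, 42925353 to 42958893, minus strand, GRCh38) encodes GLUT1, the transporter of basal uptake in most cells. Its level was 151, 165 and 158 CPM in replicates 1 to 3 of L1-FGGY DMSO and 180.5, 162 and 187 in those of ML355. The groups overlapped, and the log2 difference was 0.16 (SE 0.12, adjusted p = 0.277, edgeR). CTRL DMSO stood highest, at 474, 511 and 511 CPM. The libraries labelled NVR were at 243, 278 and 197 CPM, all below it, a log2 difference of -1.06 (SE 0.12, adjusted p = 6.17e-06, edgeR). The order of the group means was therefore CTRL DMSO, NVR, ML355 and L1-FGGY DMSO, of which the last 2 did not differ beyond their spread.

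*SLC2A3* (ENSG00000059804, chromosome 12, 7919230 to 8019007, minus strand) encodes GLUT3, which has a higher affinity for glucose than GLUT1. It was at 42.5, 49.4 and 48.8 CPM in L1-FGGY DMSO and at 150.4, 157 and 167 in ML355. Every ML355 library was above every DMSO library, with a 3.38-fold rise (log2 1.76, SE 0.11, adjusted p = 2.2e-09, edgeR). The values were 207, 230.2 and 240.0 CPM in CTRL DMSO and 131, 139.6 and 130.0 in the libraries labelled NVR. The NVR libraries were thus lower without overlap, by a log2 difference of -0.76 (SE 0.10, adjusted p = 2.82e-05, edgeR). Among the group means CTRL DMSO was highest, ML355 and NVR came next, and L1-FGGY DMSO was lowest. *SLC2A14*, a near-identical copy of this gene, had 0 counts in all L1-FGGY DMSO and ML355 libraries and at most 35 counts in any other, against 741 to 6261 counts of *SLC2A3*.

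*SLC2A12* (ENSG00000146411, chromosome 6, 133987581 to 134052624, minus strand), which encodes GLUT12, was close to the detection limit. It had 14, 9 and 8 counts in L1-FGGY DMSO and 0 in all 3 ML355 libraries. Set against a floor of 3 counts per library (0.148 to 0.157 CPM), this is at least 3.56-fold lower (adjusted p = 0.000242, edgeR). The gene passed the filter on low counts through CTRL DMSO and the libraries labelled NVR. In a fit of only the groups compared it failed the filter, so this call rests on groups outside the comparison. Counts were 36, 42 and 40 in CTRL DMSO and 48, 118 and 31 in the libraries labelled NVR, where replicate 2 stood far above the other two. In CPM the NVR libraries were at 2.4, 4.36 and 1.7 against 1.51 to 1.64, a log2 difference of 0.87 (SE 0.36, adjusted p = 0.0634, edgeR). Exons of *SLC2A12* share 2852 bp with those of *TBPL1* on the opposite strand. Whether counting used the strand is not stated, so its values are uncertain.

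Per kilobase of the canonical transcript, *SLC2A1* exceeded *SLC2A3* in all 4 group means, by 46.7 ± 1.96 against 12.3 ± 1.01 CPM per kb (SD, n = 3) in L1-FGGY DMSO and 52.2 ± 3.88 against 41.4 ± 2.23 in ML355. The share of *SLC2A3* in the sum of these 2 transporters was 20.8% ± 0.833 (SD, n = 3) in L1-FGGY DMSO and 44.3% ± 1.9 in ML355. It was 28.6% ± 0.736 in CTRL DMSO and 33.3% ± 3.13 in the libraries labelled NVR. ML355 and L1-FGGY DMSO shares did not overlap, and neither did NVR and CTRL DMSO shares, but an exact permutation test of 3 against 3 libraries cannot give a two-sided p below 0.1 and was not used for such shares.

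*TXNIP* (ENSG00000265972, chromosome 1, 145992435 to 145996579, minus strand) encodes thioredoxin-interacting protein. Its promoter is shown because the gene rose more than any other member after ML355 and because its known carbohydrate response element lies there. That element is a pair of CACGAG boxes with 5 bases between, recognised by the glucose-sensing factor MondoA (gene *MLXIP*) or its relative ChREBP (gene *MLXIPL*) together with *MLX*. The 250 bases before the start (RefSeq, GRCh38.p14, chr1:145996580-145996829, minus strand) are printed 5′ to 3′ with the 2 boxes in capitals.
TXNIP: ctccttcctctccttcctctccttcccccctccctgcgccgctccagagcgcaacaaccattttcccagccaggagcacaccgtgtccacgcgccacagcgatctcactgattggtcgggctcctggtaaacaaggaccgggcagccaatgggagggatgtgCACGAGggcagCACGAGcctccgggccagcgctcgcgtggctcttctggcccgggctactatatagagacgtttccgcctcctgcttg
The pair runs from base -88 to base -72, and 2 of 34788 promoters of the same length held such a pair on either strand (0.00575%). The single box CACGAG occurred in 5.58% of promoters. A match of letters is a description and not evidence that a factor is bound.

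*TXNIP* was at 79.5, 109 and 74.9 CPM in L1-FGGY DMSO and at 392, 509 and 447 in ML355. All ML355 libraries were above all DMSO libraries, and the mean rose from 87.9 ± 18.6 to 449 ± 58.2 CPM (SD, n = 3; log2 2.35, SE 0.19, adjusted p = 4.18e-08, edgeR). CTRL DMSO had 9.04, 11.1 and 9.85 CPM. The libraries labelled NVR had 7.1, 7.36 and 3.95 CPM, lower without overlap, but the log2 difference of -0.69 (SE 0.21, adjusted p = 0.0128, edgeR) missed the threshold. The call depended on the fit, since DESeq2 gave an adjusted p of 0.00704 and leaving out NVR replicate 2 gave 0.00538.

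The other alpha-arrestins were read beside *TXNIP*. Of 5 genes, 4 were tested, and after ML355 2 were higher and 1 lower, where 21.3% of all genes were higher and 23.5% lower. *ARRDC4*, a close relative of *TXNIP* that also restrains glucose uptake, rose from 1.75 to 20.0 CPM (log2 3.51, SE 0.24, adjusted p = 6.95e-09, edgeR). *ARRDC3*, which acts on the trafficking of membrane receptors, rose from 14.9 to 149 CPM (log2 3.32, SE 0.17, adjusted p = 5.35e-10, edgeR). *ARRDC2* fell by 0.49 on the log2 scale. In the libraries labelled NVR, against CTRL DMSO, only *ARRDC2* was called, at a log2 difference of 0.61, while *ARRDC1* (0.62, adjusted p = 0.0125, edgeR), *ARRDC3* (0.31) and *ARRDC4* (0.19) missed the threshold.

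*HK1* (ENSG00000156515, chromosome 10, 69269984 to 69401884, plus strand), the hexokinase of most tissues, varied least of the 10 genes, between 151 and 213 CPM in all 12 libraries. It was 162, 171 and 168 CPM in L1-FGGY DMSO and 213, 177 and 197 in ML355 (log2 0.23, SE 0.10, adjusted p = 0.063, edgeR). CTRL DMSO was at 160.5, 154 and 151 CPM, and the libraries labelled NVR at 201, 192 and 213, higher without overlap (log2 0.38, SE 0.10, adjusted p = 0.00573, edgeR). This edgeR call was lost with scaling by library size alone (log2 0.22, adjusted p = 0.0876), with the fit of only the groups compared (0.0166), without a filter on low counts (0.0312), with the replicate block (0.0102) and when CTRL DMSO replicate 2 or 3 or NVR replicate 1 or 3 was left out (0.0162 to 0.0297).

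*HK2* (ENSG00000159399, chromosome 2, 74834127 to 74893359, plus strand) encodes the inducible hexokinase found in muscle, fat and many tumours. It was at 29.7, 30.2 and 26.6 CPM in L1-FGGY DMSO and 80.9, 73.4 and 82.6 in ML355, a 2.74-fold rise without overlap (log2 1.45, SE 0.17, adjusted p = 2.93e-06, edgeR). CTRL DMSO spread from 28.2 over 36.6 to 46.7 CPM. The libraries labelled NVR, at 17.8, 23.1 and 15.1 CPM, lay below it (log2 -0.99, SE 0.17, adjusted p = 0.000292, edgeR). The promoter is shown because *HK2* moved in opposite directions in the comparisons within the sets and is a known target of hypoxia-inducible factors, whose core motif is ACGTG or GCGTG. The 250 bases before the start (RefSeq, GRCh38.p14, chr2:74833877-74834126, plus strand) carry these letters in capitals, on either strand.
HK2: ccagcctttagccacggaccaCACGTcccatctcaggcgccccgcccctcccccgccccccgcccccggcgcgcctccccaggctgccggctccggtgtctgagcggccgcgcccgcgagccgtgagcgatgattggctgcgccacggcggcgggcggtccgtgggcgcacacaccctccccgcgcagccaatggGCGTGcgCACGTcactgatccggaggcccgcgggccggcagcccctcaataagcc
ACGTG was found on the minus strand at -229 and -48, and GCGTG on the plus strand at -55. Such cores are common, in 18.5% and 32.2% of promoters, and 4 and 3 of the 9 members with a RefSeq promoter entry held them. *SLC2A3* had no entry.

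As a share of *HK1*, *HK2* and *HKDC1* together, per kilobase, *HK2* made up 7.36% ± 0.543 (SD, n = 3) in L1-FGGY DMSO, 16.6% ± 0.388 in ML355, 9.04% ± 2.06 in CTRL DMSO and 4.7% ± 1.1 in the libraries labelled NVR. *HK1* held the largest share in all groups, from 59.1% ± 2.99 in CTRL DMSO to 79.1% ± 2.75 in the NVR libraries. *HKDC1*, a further hexokinase gene, did not differ after ML355 beyond its spread (log2 -0.16, adjusted p = 0.221, edgeR) and was lower in the NVR libraries than in CTRL DMSO, at 41.9 against 84.9 CPM (log2 -1.02, adjusted p = 3.74e-06, edgeR).

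*PFKP* (ENSG00000067057, chromosome 10, 3066333 to 3137718, plus strand), the platelet-type phosphofructokinase, was at 170.4, 189 and 191 CPM in L1-FGGY DMSO and 190.0, 142 and 174 in ML355. These ranges overlapped (log2 -0.12, SE 0.12, adjusted p = 0.42, edgeR). CTRL DMSO was at 746, 789 and 762 CPM. The libraries labelled NVR, at 347, 388 and 311, lay 2.19-fold lower (log2 -1.13, SE 0.12, adjusted p = 3.72e-06, edgeR). *PFKP* formed 50.2% ± 1.28 (SD, n = 3) of the 3 phosphofructokinases per kilobase in L1-FGGY DMSO and 43.2% ± 2.54 in ML355, 73.3% ± 0.767 in CTRL DMSO and 55.5% ± 4.08 in the NVR libraries. The muscle form, *PFKM*, was slightly higher after ML355 (log2 0.36, adjusted p = 0.00715, edgeR) and in the NVR libraries against CTRL DMSO (log2 0.38, adjusted p = 0.00799, edgeR).

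*PFKFB3* (ENSG00000170525, chromosome 10, 6144934 to 6254644, plus strand) was at 26.0, 28.4 and 28.5 CPM in L1-FGGY DMSO and 33.3, 37.5 and 40.3 in ML355. The groups did not overlap, but the log2 difference of 0.42 (SE 0.19, adjusted p = 0.0746, edgeR) missed the threshold, which it passed in a fit of only the groups compared (adjusted p = 0.00467). CTRL DMSO was at 739.8, 906 and 948 CPM. The libraries labelled NVR were at 448, 634 and 317, all lower but spread over a wide range (log2 -0.89, SE 0.19, adjusted p = 0.00122, edgeR), and the call was lost in a fit of only the groups compared (0.0178). *PFKFB3* was 91.5% ± 0.795 (SD, n = 3) of the 4 PFKFB genes per kilobase in CTRL DMSO and 89.9% ± 4.02 in the NVR libraries, against 29.0% ± 1.51 in L1-FGGY DMSO and 45.1% ± 3.79 in ML355. Its relatives *PFKFB2* and *PFKFB4* fell after ML355, by 0.56 and 0.60 on the log2 scale.

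*LDHA* (ENSG00000134333, chromosome 11, 18394560 to 18408425, plus strand), which turns pyruvate into lactate, had the highest group means of the 10 genes per kilobase, from 290.4 to 795 CPM per kb. It was at 1652, 1583 and 1518 CPM in L1-FGGY DMSO and 658, 650.1 and 645 in ML355. The mean fell from 1585 ± 67.2 to 651 ± 6.65 CPM (SD, n = 3; log2 -1.28, SE 0.11, adjusted p = 8.94e-08, edgeR). CTRL DMSO was at 1909, 1739.7 and 1694 CPM and the libraries labelled NVR at 1352, 1320.4 and 1264, lower without overlap (log2 -0.44, SE 0.11, adjusted p = 0.00387, edgeR). That second difference was lost in a fit of only the groups compared (0.022) and without CTRL DMSO replicate 1 or 2 or NVR replicate 1 or 3 (0.014 to 0.0158). *LDHB*, which encodes the other main subunit of lactate dehydrogenase and was named after its values were seen, was at 545 and 496 CPM in L1-FGGY DMSO and ML355 (log2 -0.14, adjusted p = 0.348, edgeR). *LDHA* was 62.8% ± 0.15 (SD, n = 3) of both per kilobase in L1-FGGY DMSO and 43.4% ± 2.45 in ML355, 53.8% ± 1.14 in CTRL DMSO and 47.3% ± 2.38 in the NVR libraries. The promoter is shown because *LDHA*, likewise a known target of hypoxia-inducible factors, fell where *HK2* and *PDK1* rose. The 250 bases before the start (RefSeq, GRCh38.p14, chr11:18394313-18394562, plus strand) have the E-box CACGTG in capitals, which also contains the core ACGTG on both strands.
LDHA: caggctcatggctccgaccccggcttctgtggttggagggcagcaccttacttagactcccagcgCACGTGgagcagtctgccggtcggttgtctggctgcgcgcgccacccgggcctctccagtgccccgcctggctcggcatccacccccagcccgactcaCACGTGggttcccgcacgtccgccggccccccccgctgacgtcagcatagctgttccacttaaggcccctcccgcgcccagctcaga
The E-boxes begin at -185 and -87, and a further ACGTG lies on the minus strand at -73. CACGTG occurred in 6.31% of promoters, and *PFKFB3* was the only other of the 9 members with an entry to hold it.

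*PDK1* (ENSG00000152256, chromosome 2, 172555373 to 172608669, plus strand) encodes a kinase that inactivates pyruvate dehydrogenase. It was at 20.7, 22.9 and 19.7 CPM in L1-FGGY DMSO and 32.2, 28.3 and 30.9 in ML355, higher without overlap (log2 0.53, SE 0.14, adjusted p = 0.00398, edgeR). The call was lost with scaling by library size alone (0.0609) and when L1-FGGY DMSO replicate 1 or 3 or ML355 replicate 1 or 3 was left out (0.0124 to 0.025). CTRL DMSO was at 14.7 to 17.8 CPM and the libraries labelled NVR at 10.9, 14.3 and 10.4 (log2 -0.41, SE 0.14, adjusted p = 0.0278, edgeR). The latter passed the threshold without NVR replicate 2 (0.00357). Of its relatives, *PDK4* rose after ML355 from 35.2 to 90.7 CPM (log2 1.37, adjusted p = 2.64e-07, edgeR) and *PDK3* fell from 4.31 to 0.637 CPM (log2 -2.76, adjusted p = 1.64e-06, edgeR).

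**Figure D2:**
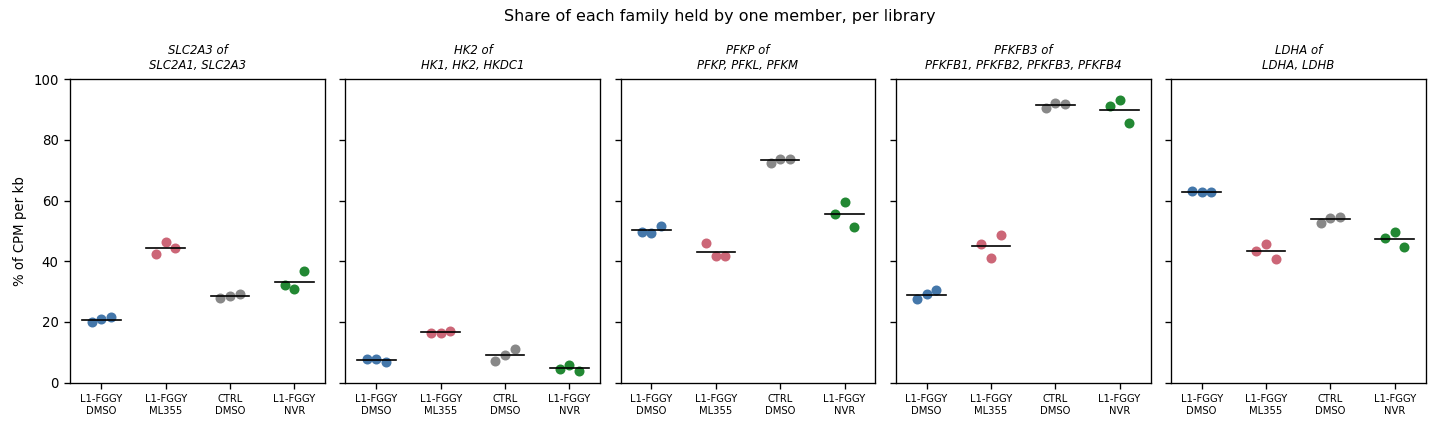
Share of a gene in the summed CPM per kb of its family (%), in each library (points) with group means of 3 (lines). After ML355 the *SLC2A3* share was 42.4 to 46.2% against 19.9 to 21.5% in L1-FGGY DMSO, the *HK2* share 16.4 to 17.1% against 6.73 to 7.71%, and the *LDHA* share 40.9 to 45.8% against 62.7 to 63.0%.

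The comparisons between the sets follow. In L1-FGGY DMSO against CTRL DMSO, 1 gene was higher and 5 were lower, where 32.5% of all genes were higher and 36.2% lower. The median log2 difference was -0.93 over the 10 genes and -0.11 over all genes. *PFKFB3* was 31.3-fold lower in L1-FGGY DMSO (log2 -4.97, SE 0.22, adjusted p = 7.34e-12, edgeR) and *TXNIP* 8.77-fold higher (log2 3.13, SE 0.20, adjusted p = 6.24e-10, edgeR). *SLC2A3* (log2 -2.27), *PFKP* (-2.06), *SLC2A1* (-1.66) and *SLC2A12* (-1.49) were the other lower genes. *HK1* (0.11), *LDHA* (-0.17), *HK2* (-0.37) and *PDK1* (0.41) did not pass the threshold. *SLC2A12* lost its call with scaling by library size alone and without any of 5 libraries, at 0.0123 and 0.012 to 0.0301.

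In the libraries labelled NVR against L1-FGGY DMSO, the comparison that the labels imply for this drug, 5 genes were higher and 3 lower. Over all genes, 38.2% were higher and 35.4% lower. Scaled by library size alone, 5975 genes were higher and 7035 lower in place of 6821 and 6322, with a median over all genes of -0.161 in place of 0.0794, and 4 of the 10 genes were higher and 4 lower. *PFKFB3* was 16.9-fold higher (log2 4.08, SE 0.21, adjusted p = 3.96e-11, edgeR) and *TXNIP* 14.2-fold lower (log2 -3.82, SE 0.21, adjusted p = 8.17e-11, edgeR). *SLC2A12* (log2 2.36), *SLC2A3* (1.51), *PFKP* (0.93) and *SLC2A1* (0.60) were also higher, and *PDK1* (-0.83) and *HK2* (-0.62) were lower. *HK1* (0.27, adjusted p = 0.019, edgeR) and *LDHA* (-0.27, adjusted p = 0.0296, edgeR) did not pass the threshold. The call of *HK2* was lost with at least 10 counts in every library (0.0196) and without L1-FGGY DMSO replicate 1 or 2 or NVR replicate 1 or 3 (0.013 to 0.0171), and that of *SLC2A1* with scaling by library size alone (0.0307). This comparison shares its L1-FGGY DMSO libraries with the 2 other comparisons that use that group, and *FGGY* was at the CTRL level in the libraries labelled NVR.

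**Figure D3:**
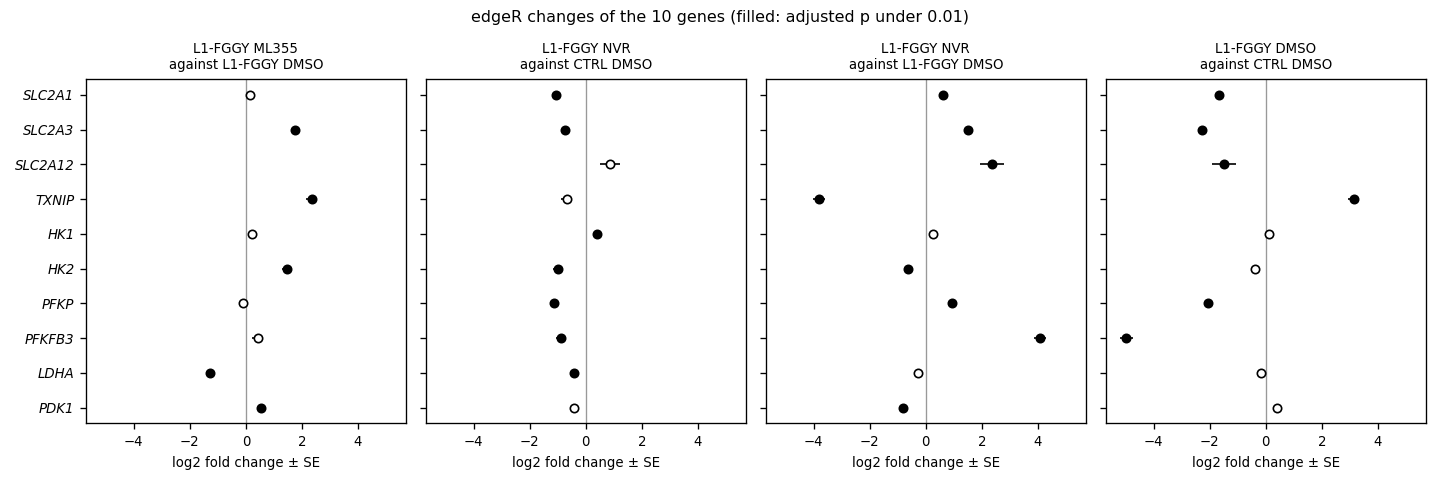
Log2 fold change with SE (horizontal axis) of the 10 genes from edgeR in 4 comparisons of 3 against 3 libraries, filled where the adjusted p is under 0.01. *SLC2A12* after ML355 is left out, being at 0 counts there. *TXNIP* and *PFKFB3* lie on opposite sides of 0 in both comparisons between the sets, at 3.13 and -4.97 in L1-FGGY DMSO against CTRL DMSO.

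The change after ML355 was tested against the change in the libraries labelled NVR from CTRL DMSO, in the same fit. The effects differed for 9 of the 10 genes, and for 34.1% of all genes tested. Among the 9 was *SLC2A12*, which had 0 counts in all ML355 libraries. With at least 10 counts in every library, where *SLC2A12* was absent, 8 were called. *SLC2A3* rose after ML355 and was lower in the NVR libraries, a difference of effects of -2.51 on the log2 scale (SE 0.15, adjusted p = 5.89e-09, edgeR). *HK2* did the same, with -2.44 (SE 0.24, adjusted p = 9.28e-07, edgeR). *HK1* was the exception, at 0.15 (SE 0.14, adjusted p = 0.392, edgeR). This contrast also compares different DMSO groups and different cells.

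The rest of the pathway was read from 8 lists of 100 genes in all. For each list, the shares over all genes tested in the fit of all 12 libraries were 21.3% higher and 23.5% lower after ML355. In the NVR libraries against CTRL DMSO they were 14.5% and 15.3%. No list was tested against these shares. Of the 13 other hexose transporters, 8 were tested. After ML355, 1 was higher and 3 were lower, led by *SLC2A6*, a lysosomal hexose transporter, which fell from 89.5 to 6.54 CPM (log2 -3.77, adjusted p = 1.55e-11, edgeR), and by the fructose transporter *SLC2A5*, which fell from 5.57 to 0.629 CPM (log2 -3.14, adjusted p = 4.79e-07, edgeR). In the NVR libraries against CTRL DMSO 1 was higher, the inositol transporter *SLC2A13* (log2 0.69), and 0 were lower. Of the 12 other upper glycolysis genes, 8 were tested, with 1 higher and 3 lower after ML355, among them *TIGAR*, a fructose bisphosphatase, which fell by 0.78 on the log2 scale, and 1 higher and 2 lower in the NVR libraries.

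Of the 13 lower glycolysis enzymes, 10 were tested. After ML355, 4 were lower and 1 was higher, the aldolase *ALDOC*, which rose from 20.9 to 67.2 CPM (log2 1.68, adjusted p = 2.69e-08, edgeR). *PGAM1*, a phosphoglycerate mutase, fell from 217 to 98.5 CPM (log2 -1.14, adjusted p = 3.95e-07, edgeR), and the enolase *ENO3* fell by 1.30 on the log2 scale. In the NVR libraries against CTRL DMSO, 4 were lower and 1 higher, with *PGAM1* (log2 -0.71), the phosphoglycerate kinase *PGK1* (-0.61) and the enolase *ENO2* (-0.56) in front. The median of this list was -0.36 after ML355 and -0.45 in the NVR libraries, against 0.00 over all genes in both.

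All 19 genes of lactate and pyruvate handling were tested, with 4 higher and 5 lower after ML355 and 3 higher and 3 lower in the NVR libraries. There *DLAT*, a subunit of pyruvate dehydrogenase, was 2.41-fold lower, while *MPC1*, a subunit of the mitochondrial pyruvate carrier, was 2.15-fold higher. *PDHX*, another component of pyruvate dehydrogenase, was 1.62-fold higher after ML355. All 7 pentose phosphate enzymes were tested. After ML355, 3 were higher, with *RPIA* (log2 1.05) and the transketolase *TKT* (0.89) leading. In the NVR libraries 2 were higher and 1 lower.

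Of the 19 hypoxia-inducible genes outside glycolysis, 9 were higher and 6 lower after ML355. The transcriptional repressor *BHLHE40* rose from 119 to 1385 CPM (log2 3.54, adjusted p = 2.8e-10, edgeR) and the growth factor *VEGFA* from 105 to 467 CPM (log2 2.15, adjusted p = 1.06e-07, edgeR), while the carbonic anhydrase *CA12* fell from 41.2 to 12.3 CPM (log2 -1.74, adjusted p = 1.01e-08, edgeR). Members of the list thus moved both ways. In the NVR libraries 2 were higher and 3 lower, with *VEGFA* at -1.02. Of 12 transcriptional regulators of glycolysis, 7 were higher and 3 lower after ML355, with *KLF10*, which responds to glucose, up from 57.9 to 218 CPM (log2 1.91, adjusted p = 1.13e-08, edgeR). In the NVR libraries 2 were higher and 4 lower, *MLXIPL* being at 16.5 against 5.0 CPM (log2 1.73, adjusted p = 1.93e-07, edgeR) and *EPAS1*, which encodes the hypoxia-inducible factor HIF-2 alpha, at 107 against 216 (log2 -1.01, adjusted p = 0.000115, edgeR). *HIF1A* and *MLXIP*, named after their values were seen, changed after ML355 by 0.06 (adjusted p = 0.679, edgeR) and 0.51 (adjusted p = 0.000958, edgeR) on the log2 scale. *MLXIPL* and *MLX* were also tested after ML355, but the rule did not name them there. The value of *MLXIP* alone therefore does not describe these factors together, and whether they acted on *TXNIP* was not tested.

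**Figure D4:**
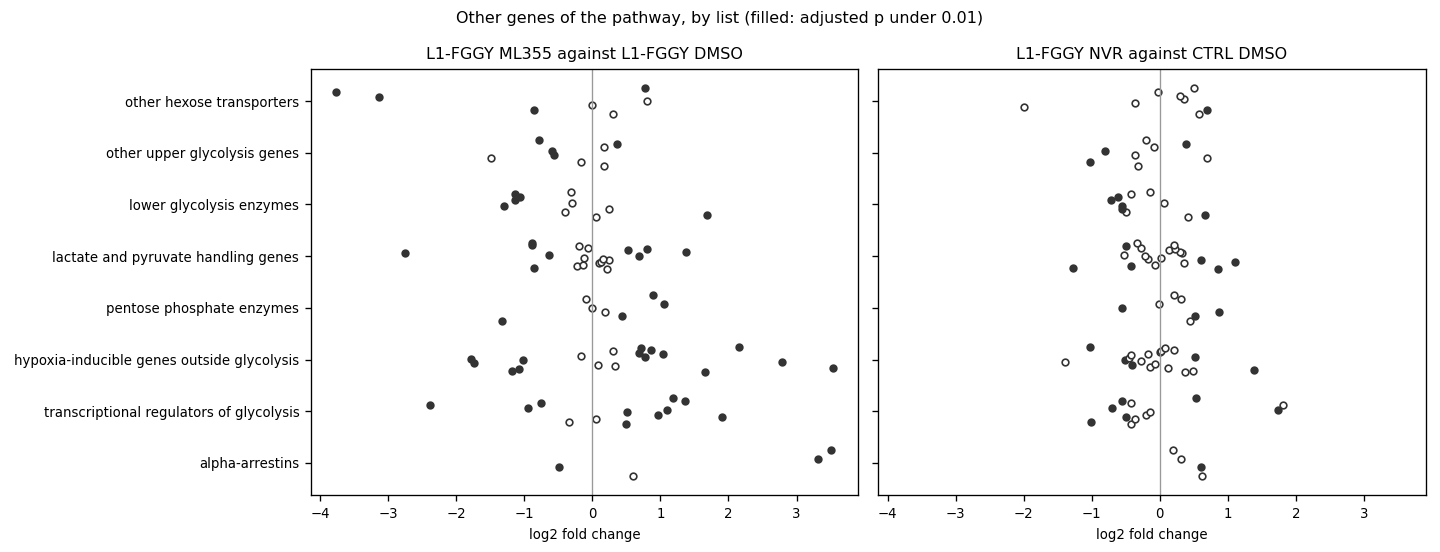
Log2 fold change (horizontal axis, edgeR) of the tested genes of 8 lists, each point a gene, filled where the adjusted p is under 0.01, for ML355 against L1-FGGY DMSO and for NVR, by label, against CTRL DMSO (3 against 3 libraries each). *SLC5A2* and *CA9* after ML355, at or under the floor in a single group, are left out. Genes at or under it in both groups, *SLC2A14* and *PFKFB1* among them, are shown. *ARRDC3* and *ARRDC4* stand at 3.32 and 3.51 after ML355 and at 0.31 and 0.19 in the other comparison.

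The genes whose pattern over the 12 libraries was nearest to a member were found among the 14428 tested genes that averaged 1 CPM or more, by the root mean square (RMS) difference of log2 CPM after each gene was centred on its own mean. *SLC2A1*, whose own RMS deviation from its mean was 0.66, was nearest to *LOXL2* (0.08) and *SENP3* (0.12). For *LDHA*, with a deviation of 0.56, the nearest were *SLC35A4* and *CARS2*, both at 0.10. For *TXNIP* they were *HLA-V* (0.36) and *GATA4* (0.39), for *PFKFB3* (2.18) *CNTNAP3C* (0.26) and *SALL1* (0.32), and for *HK2* (0.79) *TSC22D2* (0.21) and *CKAP5* (0.23). No member was nearest to another member. All points share the same 12 libraries and the same split into a pair of sets, and the likeness is a description without a test.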

How the data were processed

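RNA of 12 libraries, all NCI-H520 by their labels, was analysed in the 4 groups of 3 that the labels give. Per the labels and the submitters' processing notes, the authors used STAR 2.5.3a and the hg38 build for alignment and HTSeq 0.11.2 for counting, and deposited raw counts, which are whole numbers for each Ensembl gene and were not normalized. The annotation release, the strand setting and the handling of reads with several positions are not given in the sources used here. The labels name a TruSeq kit and the study's methods an NEB kit. The columns headed DMSO1 to DMSO3 were read as CTRL DMSO, since the L1-FGGY DMSO libraries have columns under their own titles, and the columns headed NVR lack the prefix of the construct that their titles carry.

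Of 58302 genes, 57532 were matched to symbols and positions in GENCODE 44. Total counts ran from 16242082 to 27004768 per library, so that 3 counts, the floor for fold changes, correspond to 0.111 to 0.172 CPM. Genes were tested with edgeR 4.0.16 under R 4.3.3 (filterByExpr, TMM, quasi-likelihood test with robust estimation, all 12 libraries in 1 fit of 4 group means, Benjamini-Hochberg adjusted p under 0.01, the study's threshold). The SE of a log2 fold change is its size over the square root of F. CPM per kb uses the length of the canonical GENCODE transcript. Alternatives were voom of limma 3.58.1 (the study's test), DESeq2 1.42.0, DESeq2's size factors or library size alone in edgeR, no filter, at least 10 counts in every library, only the groups compared, a replicate block, each library left out, and an adjusted p under 0.05. Scripts were tested on simulated data. Python 3.11.15 with pandas 2.3.3, numpy 2.4.6 and matplotlib 3.10.9 served for tables and plots. Promoter sequences are RefSeq's.

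The members and the gene lists were chosen with earlier results of these data known. All 10 members are reported in every comparison. Of each other list, up to 3 tested genes with the smallest adjusted p were eligible to be named after ML355 and up to 3 in the libraries labelled NVR against CTRL DMSO. For each member the 2 genes with the nearest pattern were found, and those of 5 members are given. Outside this rule, and after their values were seen, LDHB, HIF1A, MLXIP, HKDC1 and PFKM were named after ML355, and ARRDC4 in the libraries labelled NVR. A result that the rule would include is not reported here.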

Additional observations from a re-analysis of the deposited data

Results flagged for a closer look

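For 9 of the 10 genes, the change in the libraries labelled NVR from CTRL DMSO differed from the change after ML355 from L1-FGGY DMSO, in a test of the difference itself (edgeR, adjusted p under 0.01; 34.1% of all genes differed). The differences below are the first change minus the second, on the log2 scale. The transporter genes differed by -1.22 for SLC2A1 and -2.51 for SLC2A3. SLC2A12 differed by 7.45, a fitted value that rests on 0 counts in all ML355 libraries and is not a measure of size. TXNIP differed by -3.05, HK2 by -2.44, PFKP by -1.01 and PFKFB3 by -1.31. LDHA differed by 0.84, since it was lower in both comparisons but more so after ML355. PDK1 differed by -0.94. All 9 differences were called in each of the 12 fits that left out a library. The comparison also sets libraries with counts of SOX2 against libraries without, and drug and cells cannot be told apart in it.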

How the results depend on the processing

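No member turned its direction under any alternative. Over all members, comparisons and alternatives, 743 fold changes kept their side of the threshold, 31 lost a call and 20 gained 1. The number of the 10 genes called in the libraries labelled NVR against CTRL DMSO fell from 7 to 4 when only the groups compared were fitted, where HK1, PFKFB3 and LDHA were lost, and ranged from 5 to 9 when a library was left out. The number of all genes called there, 5316, ranged from 3506 without CTRL DMSO replicate 2 to 6106 without NVR replicate 2. After ML355, 5 or 6 of the 10 were called under every alternative, PDK1 being lost in those given above and SLC2A12 absent from the fit with at least 10 counts in every library and from the fit of only the groups compared. Library size alone moved the median of all genes to -0.127 after ML355, -0.161 in NVR against L1-FGGY DMSO and -0.152 in NVR against CTRL DMSO. The deviations of libraries with the same replicate number correlated between -0.354 and 0.17. Libraries with unequal numbers were not compared in this way, so whether the numbers pair the libraries cannot be told. With the replicate block, 7583 genes in place of 8004 were called after ML355, 12874 in place of 13143 in NVR against L1-FGGY DMSO, 4754 in place of 5316 in NVR against CTRL DMSO and 11979 in place of 12263 in L1-FGGY DMSO against CTRL DMSO. Among the members the block lost HK1 (adjusted p = 0.0102, edgeR) and gained TXNIP (0.00478), both in NVR against CTRL DMSO, and changed no other call. Depth limits SLC2A12, whose counts were 118 or fewer in all libraries.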
